A study of Mus musculus with 20 samples.

Results

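Transcripts of 9 chemokine receptors, namely Ccr2, Ccr4, Ccr7, Ccr8, Ccr9, Cxcr3, Cxcr4, Cxcr5 and Cxcr6, were followed in mouse CD8+ T cells that were given interleukin-21 or a designed mimic of it. The 9 genes were taken by symbol from the deposited expression tables, which list 23992 gene symbols in all. The list rests on no cutoff in a measured value, but it was drawn up with earlier results of these data known. The cells were splenic CD8+ T cells of wild-type C57BL/6J mice aged 6 to 8 weeks, pre-activated with anti-CD3 and anti-CD28 for 48 h, rested overnight and then given mouse IL-21 (mIL-21) or the designed protein 21h10 for 24 h, or neither (unstimulated). For the unstimulated cells the labels give no time of culture after the rest. Every group, the unstimulated one included, had therefore been activated through CD3 and CD28. Experiment 1 held unstimulated cells and cells given 100 pM or 1 nM of either protein, and experiment 2 held unstimulated cells and cells given 10 nM or 100 nM. There were 5 groups in an experiment and 2 RNA-seq libraries in a group. No dose was shared between the experiments, so that dose range and experiment cannot be told apart.

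Chemokine receptors are G-protein-coupled receptors that direct cell migration along gradients of chemokines. Which of them a CD8+ T cell carries helps to set where it goes: CCR7 leads T cells into lymph nodes along CCL19 and CCL21, CXCR5 into B-cell follicles along CXCL13, and CXCR4 towards CXCL12 in bone marrow. CXCR3, CXCR6 and CCR2 are receptors of activated and memory T cells for chemokines made in inflamed tissue, CCR4 and CCR8 are linked to skin homing and to type 2 and regulatory T cells, and CCR9 leads cells to the small intestine along CCL25. IL-21 is a cytokine of helper T cells that signals through IL-21R and the common γ chain, with STAT3 as its main transcription factor in T cells.

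All 9 genes are protein-coding, and 6 of them lie on chromosome 9 of the mouse genome (GRCm38). There Ccr9 (chr9:123767211-123783457, + strand), Cxcr6 (chr9:123806477-123811754, + strand) and Ccr2 (chr9:124101918-124109140, + strand) form 1 neighbourhood, with gaps of 23.0 kb and 290.2 kb between them, and Cxcr6 lies inside the annotated span of Fyco1 without sharing exonic bases with it. RefSeq promoter windows (GRCm38.p6) were found for 7 of the 9 genes. The 250 bases before the start are printed for Ccr2 and Cxcr6, which rose in every treated group, for Ccr4 and Ccr8, which were lower in every treated group, and for Cxcr4, whose response turned between the experiments. They lie at chr9:124101933-124102182 (+ strand, Ccr2), chr9:123806227-123806476 (+ strand, Cxcr6), chr9:114496545-114496794 (− strand, Ccr4), chr9:120091883-120092132 (+ strand, Ccr8) and chr1:128592300-128592549 (− strand, Cxcr4). The Ccr2 and Ccr4 windows lie inside the annotated spans of their genes (chr9:114490316-114505476 for Ccr4), so that these letters precede the start that the RefSeq window used and not the outermost one. Capitals mark matches to TGANTCA, an AP-1 type motif, or to TATAAA on either strand.
Ccr2: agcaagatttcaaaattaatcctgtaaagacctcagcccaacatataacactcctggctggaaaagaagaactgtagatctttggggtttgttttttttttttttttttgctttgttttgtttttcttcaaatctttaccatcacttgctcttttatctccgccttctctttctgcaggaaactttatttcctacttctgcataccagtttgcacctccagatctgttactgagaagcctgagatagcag
Cxcr6: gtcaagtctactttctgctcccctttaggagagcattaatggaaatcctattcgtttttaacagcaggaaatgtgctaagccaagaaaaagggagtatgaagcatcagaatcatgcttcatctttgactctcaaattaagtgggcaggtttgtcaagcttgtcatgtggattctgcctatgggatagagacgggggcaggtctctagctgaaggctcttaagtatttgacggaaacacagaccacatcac
Ccr4: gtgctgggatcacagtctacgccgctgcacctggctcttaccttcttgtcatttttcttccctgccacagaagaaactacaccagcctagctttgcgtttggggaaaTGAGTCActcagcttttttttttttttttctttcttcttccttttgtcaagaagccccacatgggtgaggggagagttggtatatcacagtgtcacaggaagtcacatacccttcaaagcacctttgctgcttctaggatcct
Ccr8: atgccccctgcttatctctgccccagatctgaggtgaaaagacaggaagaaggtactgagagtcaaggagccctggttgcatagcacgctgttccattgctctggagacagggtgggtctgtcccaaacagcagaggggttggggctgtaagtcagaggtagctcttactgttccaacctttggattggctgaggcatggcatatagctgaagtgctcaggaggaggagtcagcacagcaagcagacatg
Cxcr4: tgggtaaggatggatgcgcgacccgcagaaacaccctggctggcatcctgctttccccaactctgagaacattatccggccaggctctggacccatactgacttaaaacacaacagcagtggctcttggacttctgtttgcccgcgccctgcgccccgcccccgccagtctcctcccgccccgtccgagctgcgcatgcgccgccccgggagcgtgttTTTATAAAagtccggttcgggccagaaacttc
The TGANTCA match in the Ccr4 window reads TGAGTCA, and 6.75% of 32851 RefSeq windows of the same length held this motif. TATAAA and its reverse complement overlap in the Cxcr4 window and begin 30 and 32 bases before the start, and 12.4% of windows held this motif. TTCNNNGAA, the palindrome bound by STAT proteins, was in 0 of the 7 windows of these receptors and in 7.02% of all windows. A match or its absence is a description of these letters only.

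The libraries held 36824740 to 94070730 reads on genes in experiment 1 and 27072917 to 43300094 in experiment 2. Defining markers of CD8+ T cells were high throughout, with Cd8a at 102 to 147 RPKM (reads scaled to transcript length and to the mapped reads of the library) in experiment 1 and 104 to 150 in experiment 2, whereas Cd4 did not exceed 1.09 RPKM. Of the 3 neutrophil markers, S100a8 and S100a9 were at 0 in every library, and Elane was above 0 in 2 of 8 treated libraries of experiment 1 (at most 0.0246 RPKM) and 1 of 8 of experiment 2 (0.124 RPKM) and in no unstimulated one. The summed levels of the dendritic, NK and erythroid lists stayed at or below 0.424, 1.03 and 0.325 RPKM. Fold changes and tests come from edgeR's quasi-likelihood test on the counts, with Benjamini-Hochberg adjustment over the 13974 genes tested in experiment 1 or the 13772 in experiment 2, and a gene was called at an adjusted p under 0.05. All 9 receptors passed the filter on low counts in both experiments. In experiment 2 Ccr8 did so only through the unstimulated libraries (58 and 37 reads, against 1 to 19 in treated ones). The labels call the 2 libraries of a group duplicates and name no separate animals or cultures. The study's methods describe RNA-seq replicates in general as independent, each from its own preparation of tissue or donor, without naming these duplicates. Taken from the labels alone, p-values measure the spread between these libraries, which may be technical. The biological coefficient of variation was 4.32% in experiment 1 and 8.80% in experiment 2.

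Measured per transcript length, Ccr7 was the most abundant of the 9 in unstimulated cells, at 90.6 ± 2.62 RPKM (SD, n = 2) in experiment 1 and 119 ± 26.8 RPKM in experiment 2. Cxcr3 followed at 26.2 ± 1.0 and 51.3 ± 7.18 RPKM, and Ccr9 was at 0.354 ± 0.0452 and 0.952 ± 0.0214 RPKM. The plot of levels by library shows all 20 libraries for each gene. In the treated cells of experiment 2 this order had changed, and Ccr2 led with 124 to 168 RPKM over 8 libraries.

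**Figure D1:**
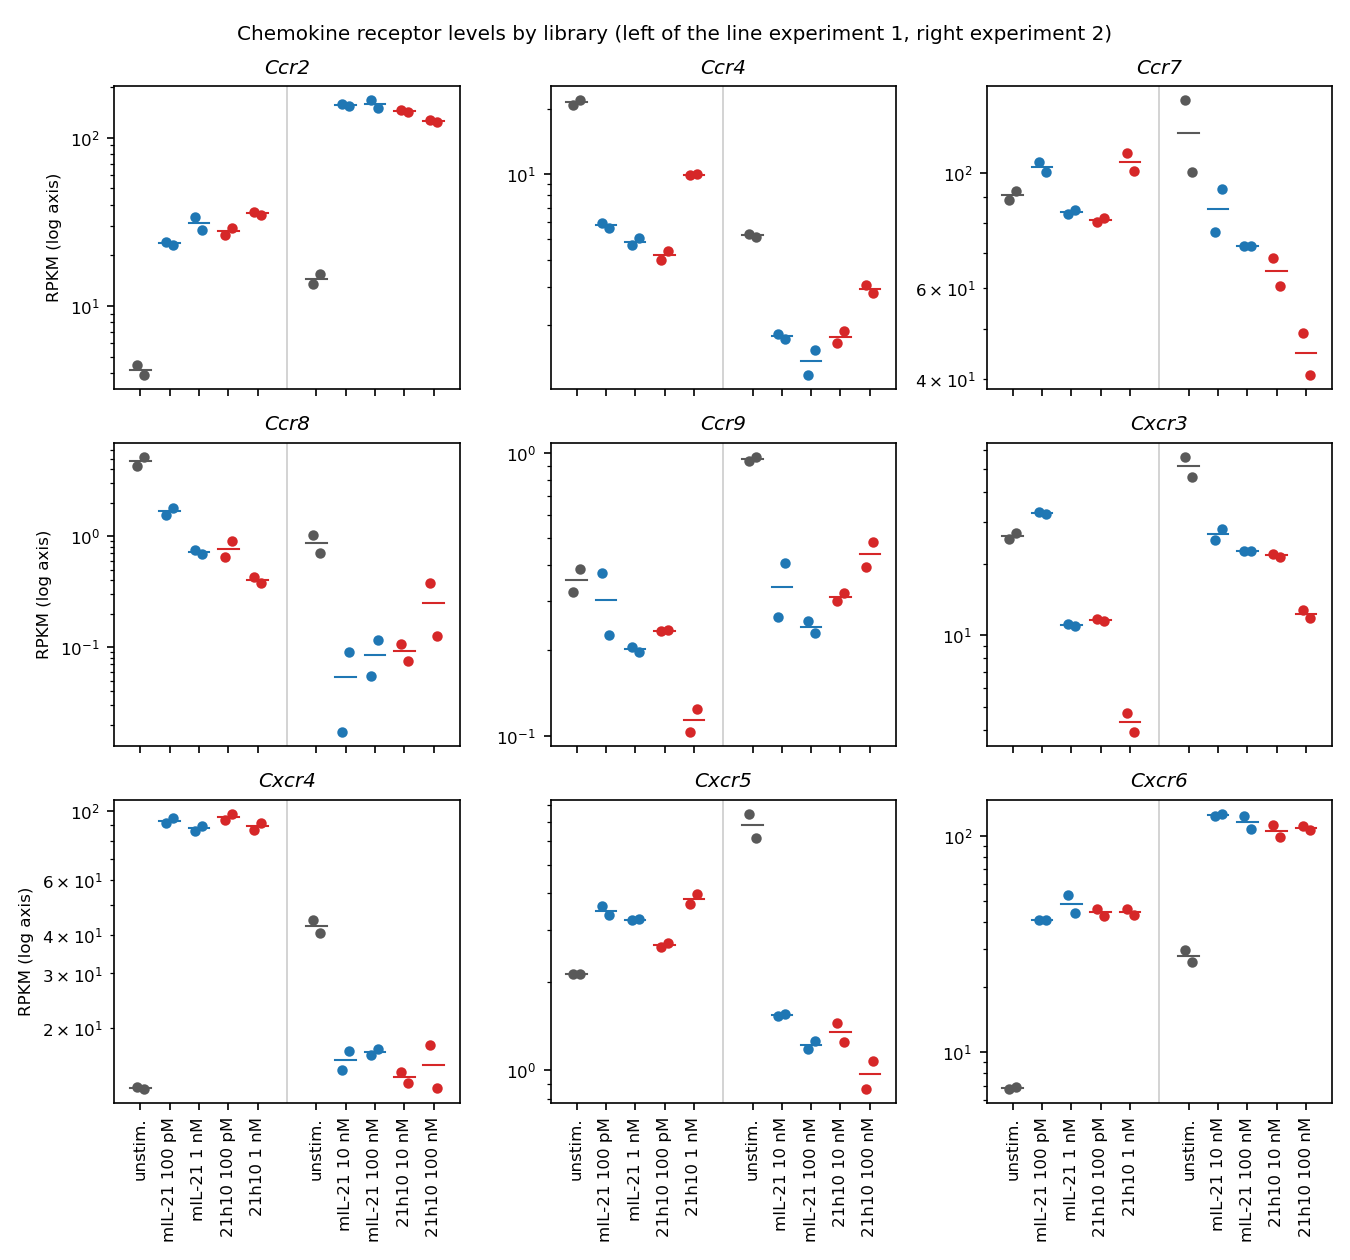
RPKM of each of the 9 chemokine receptors in each of 20 libraries (points, log axis) with the mean of each group of 2 (bars), in grey for unstimulated cells, blue for mIL-21 and red for 21h10, experiment 1 left of the line and experiment 2 right of it. Ccr2 and Cxcr6 were above the unstimulated libraries in all 8 treated libraries of both experiments, while Cxcr4 was above them in experiment 1 (86.3 to 98.0 against 12.8 and 12.97 RPKM) and below them in experiment 2 (12.8 to 17.7 against 40.6 and 44.7 RPKM).

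Against unstimulated cells, most of the 9 receptors passed the test in every treated group, and so did a large share of all genes. In experiment 1 the test called 7 of 9 receptors at 100 pM mIL-21 (77.7% of all genes tested), 8 at 1 nM mIL-21 (80.1%), 9 at 100 pM 21h10 (81.6%) and 9 at 1 nM 21h10 (80.3%). In experiment 2 it called 9 at 10 nM mIL-21 (46.2%), 9 at 100 nM mIL-21 (46.2%), 9 at 10 nM 21h10 (50.1%) and 8 at 100 nM 21h10 (50.8%). The receptors went both ways. At 1 nM mIL-21, 4 rose and 4 fell, against 39.9% of all genes higher and 40.3% lower, and the median log2 fold change of the 9 was −0.07. At 100 nM mIL-21, 2 rose and 7 fell, against 22.5% and 23.7% of all genes, and the median was −1.13, beside −0.01 over all genes.

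**Figure D2:**
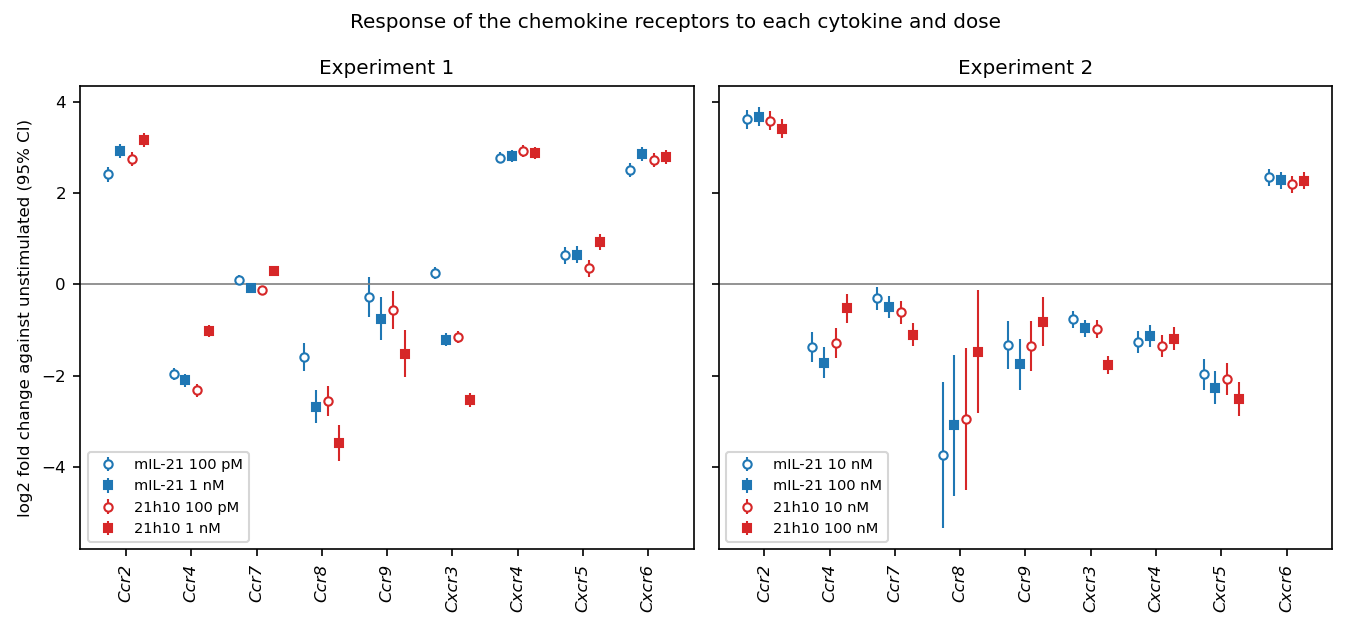
log2 fold change of each receptor against the unstimulated cells of its own experiment (points, with 95% confidence intervals), for mIL-21 (blue) and 21h10 (red) at the lower (open) and higher (filled) dose of each experiment. Ccr2 lay between 2.40 and 3.67 and Cxcr6 between 2.19 and 2.86 in all 8 comparisons, and Cxcr4 between 2.77 and 2.92 in experiment 1 but between −1.35 and −1.13 in experiment 2.

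Ccr2, the receptor for CCL2 and related monocyte chemoattractants, and Cxcr6, the receptor for CXCL16 on tissue-resident and effector T cells, rose with both proteins at every dose. Ccr2 stood at 4.45 and 3.89 RPKM in the unstimulated libraries of experiment 1, at 23.9 and 23.1 with 100 pM mIL-21, at 33.9 and 28.4 with 1 nM mIL-21, at 26.5 and 28.9 with 100 pM 21h10, and at 36.3 and 34.5 with 1 nM 21h10. Experiment 2 gave 13.6 and 15.5 RPKM unstimulated, 158 and 155 with 10 nM mIL-21, 168 and 149 with 100 nM mIL-21, 146 and 142.7 with 10 nM 21h10, and 126 and 124 with 100 nM 21h10. No treated library overlapped an unstimulated one, and the fitted rise was 5.30- to 8.92-fold in experiment 1 and 10.6- to 12.7-fold in experiment 2 (adjusted p of 2.16e-13 or lower in each of the 8 comparisons). In experiment 1 the order was 21h10 1 nM, mIL-21 1 nM, 21h10 100 pM, mIL-21 100 pM and unstimulated. Of these neighbours 1 nM mIL-21 and 100 pM 21h10 did not differ past the threshold (adjusted p = 0.338). In experiment 2 no pair of neighbours among the 4 treated groups differed past it.

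Ccr2 is also a gene of monocytes, and 4 of 5 monocyte and macrophage markers were in the tables. Their defining genes were near 0 in every library, with Lyz2 at most 0.232 RPKM and Csf1r at most 0.0128 RPKM. The summed level of the 4 was 3.39 to 3.64 RPKM in unstimulated and 16.3 to 34.4 RPKM in treated libraries of experiment 1. In experiment 2 it was 4.63 to 4.81 and 12.3 to 22.7 RPKM. These sums came almost wholly from Itgam and Cd68, which were both higher in every treated library of experiment 1. In experiment 2 Itgam went from 0.531 to 0.573 RPKM to 6.26 to 16.6 RPKM. Cd68 was at 3.82 to 4.19 RPKM unstimulated and 3.66 to 6.52 RPKM treated there. The part of these markers in the Ccr2 values was not tested. In these bulk samples, fewer cells of a type and less RNA per cell cannot be told apart. No other gene matched the Ccr2 transcript at 95% identity or more over 50 bases.

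Cxcr6 stood at 6.78 and 6.93 RPKM in the unstimulated libraries of experiment 1 and at 40.7 to 53.1 RPKM in the 8 treated ones. In experiment 2 Cxcr6 was at 29.6 and 26.2 RPKM unstimulated, at 124 and 127 with 10 nM mIL-21, at 124 and 108 with 100 nM mIL-21, at 112 and 99.3 with 10 nM 21h10, and at 111 and 106 with 100 nM 21h10. The rise was 5.64- to 7.24-fold in experiment 1 and 4.57- to 5.09-fold in experiment 2 (adjusted p of 4.37e-15 or lower and of 8.27e-12 or lower). Within each experiment the treated groups lay close together: only the step from mIL-21 100 pM to its upper neighbour 21h10 100 pM passed the test among the neighbouring treated groups.

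Cxcr3, the receptor for CXCL9, CXCL10 and CXCL11 on effector T cells, fell with both proteins at all doses but the lowest of mIL-21. In experiment 1 it stood at 25.5 and 26.9 RPKM in unstimulated libraries, at 32.9 and 32.4 with 100 pM mIL-21, at 11.1 and 10.9 with 1 nM mIL-21, at 11.7 and 11.5 with 100 pM 21h10, and at 4.70 and 3.91 with 1 nM 21h10. The lowest mIL-21 dose was the only treated group above the unstimulated cells (log2 fold change 0.24 ± 0.06, SE, adjusted p = 0.00192), and 1 nM 21h10 was 5.79-fold below them (log2 fold change −2.53 ± 0.07, adjusted p = 2.09e-15). Of the neighbours in this order, 100 pM 21h10 and 1 nM mIL-21 alone did not differ past the threshold (adjusted p = 0.832). Its libraries in experiment 2 were at 56.4 and 46.2 RPKM unstimulated, at 25.2 and 28.1 with 10 nM mIL-21, at 22.5 and 22.5 with 100 nM mIL-21, at 22.0 and 21.3 with 10 nM 21h10, and at 12.7 and 11.9 with 100 nM 21h10. There the fall ran from 1.70-fold at 10 nM mIL-21 to 3.38-fold at 100 nM 21h10, again the lowest group, and the other 3 treated groups did not differ past the threshold between neighbours.

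Ccr7, the lymph node homing receptor, moved little in experiment 1 and fell in experiment 2. In experiment 1 the libraries gave 88.7 and 92.4 RPKM unstimulated, 105 and 101 with 100 pM mIL-21, 83.2 and 84.6 with 1 nM mIL-21, 80.5 and 81.8 with 100 pM 21h10, and 109 and 101 with 1 nM 21h10. A rise passed the test at 1 nM 21h10 (log2 fold change 0.29 ± 0.05, adjusted p = 1.87e-05) and a fall at 100 pM 21h10 (−0.13 ± 0.05, adjusted p = 0.0148). The latter call was lost without either unstimulated library or without duplicate 2 of 100 pM 21h10 (adjusted p = 0.0523 to 0.118). The 2 mIL-21 doses were not called, at 0.10 ± 0.05 and −0.07 ± 0.05, although the 100 pM dose was called by DESeq2 (0.12, adjusted p = 0.0273) and by edgeR without any 1 of the 4 libraries given 1 nM of either protein (adjusted p = 0.0196 to 0.0363). In experiment 2 the libraries gave 138.3 and 100.4 RPKM unstimulated, 76.9 and 93.2 with 10 nM mIL-21, 72.2 and 72.2 with 100 nM mIL-21, 68.4 and 60.6 with 10 nM 21h10, and 49.2 and 40.8 with 100 nM 21h10. All 8 treated libraries lay below both unstimulated ones, and the fitted fall was largest at 100 nM 21h10 (2.15-fold, log2 fold change −1.10 ± 0.12, adjusted p = 1.43e-06). The fall at 10 nM mIL-21 (−0.31 ± 0.11, adjusted p = 0.0383) was −0.10 (adjusted p = 0.454) without duplicate 1 of the unstimulated cells and −0.21 (adjusted p = 0.267) without duplicate 1 of that dose.

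Cxcr4, the receptor for CXCL12, and Cxcr5, the receptor for CXCL13, went up in experiment 1 and down in experiment 2. Cxcr4 stood at 12.97 and 12.8 RPKM in unstimulated libraries of experiment 1, at 91.6 and 94.6 with 100 pM mIL-21, at 86.3 and 89.4 with 1 nM mIL-21, at 93.6 and 98.0 with 100 pM 21h10, and at 86.9 and 91.5 with 1 nM 21h10. Levels in experiment 2 were 44.7 and 40.6 RPKM unstimulated, 14.7 and 16.8 with 10 nM mIL-21, 16.3 and 17.1 with 100 nM mIL-21, 14.5 and 13.3 with 10 nM 21h10, and 17.7 and 12.8 with 100 nM 21h10. The rise was thus 6.84- to 7.56-fold in experiment 1 and the fall 2.18- to 2.55-fold in experiment 2, and all 8 comparisons were called. No 2 neighbouring treated groups of an experiment differed past the threshold.

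Cxcr5 stood at 2.13 and 2.13 RPKM unstimulated in experiment 1, at 3.61 and 3.36 with 100 pM mIL-21, at 3.24 and 3.26 with 1 nM mIL-21, at 2.63 and 2.71 with 100 pM 21h10, and at 3.67 and 3.97 with 1 nM 21h10. Experiment 2 gave 7.46 and 6.16 RPKM unstimulated, 1.53 and 1.55 with 10 nM mIL-21, 1.18 and 1.25 with 100 nM mIL-21, 1.44 and 1.25 with 10 nM 21h10, and 0.864 and 1.07 with 100 nM 21h10. The groups did not overlap with their unstimulated cells in either experiment, and the change was a 1.27- to 1.90-fold rise in experiment 1 and a 3.90- to 5.69-fold fall in experiment 2. Cxcr5 is also a defining gene of B cells, and all 5 B-cell markers were in the tables. Their summed level was 7.23 to 7.34 RPKM in unstimulated and 3.97 to 10.5 RPKM in treated libraries of experiment 1, and 6.25 to 8.30 against 3.09 to 4.34 RPKM in experiment 2. It came mostly from Cd79b (2.68 to 10.3 RPKM), while Ms4a1 was at 0.193 to 0.388 RPKM in unstimulated and at most 0.0721 RPKM in treated libraries, and the part of these transcripts in the Cxcr5 values was not tested. The transcript of Cxcr5 shares 110 bases with Bcl9l on the opposite strand, 3.30% of its exonic bases, and whether the counting used strand is not given in the sources used here.

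Ccr4 and Ccr8, the receptors linked to skin homing and to type 2 and regulatory T cells, were lower in every treated group. Ccr4 stood at 20.8 and 22.0 RPKM unstimulated in experiment 1, at 5.92 and 5.66 with 100 pM mIL-21, at 4.69 and 5.05 with 1 nM mIL-21, at 4.02 and 4.41 with 100 pM 21h10, and at 9.85 and 10.0 with 1 nM 21h10. Ccr4 in experiment 2 was at 5.31 and 5.13 RPKM unstimulated, at 1.83 and 1.73 with 10 nM mIL-21, at 1.18 and 1.55 with 100 nM mIL-21, at 1.66 and 1.89 with 10 nM 21h10, and at 3.07 and 2.81 with 100 nM 21h10. The highest 21h10 dose of each experiment kept the most Ccr4 among the treated groups, a 2.03-fold fall at 1 nM against 3.90- to 4.98-fold in the other 3 groups, and a 1.44-fold fall at 100 nM against 2.43- to 3.27-fold. The fall at 100 nM 21h10 was no longer called without duplicate 2 of that group (log2 fold change −0.50, adjusted p = 0.0596).

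Ccr8 fell in experiment 1 from 4.31 and 5.21 RPKM to 1.56 and 1.79 with 100 pM mIL-21, 0.746 and 0.689 with 1 nM mIL-21, 0.646 and 0.897 with 100 pM 21h10, and 0.431 and 0.377 with 1 nM 21h10. The fitted falls ran from 3.0-fold at 100 pM mIL-21 to 11.1-fold at 1 nM 21h10, and each was called. In experiment 2 counts were low, with 58 and 37 reads in the unstimulated libraries. They were 1 and 6 with 10 nM mIL-21, 3 and 6 with 100 nM mIL-21, 5 and 4 with 10 nM 21h10, and 19 and 6 with 100 nM 21h10. The first 3 of these groups were called lower. Ccr8 was tested there only because of its reads in the unstimulated libraries, to which these groups were compared. Pooled per read on genes the 10 nM mIL-21 level was 14.6-fold below the unstimulated one, with an exact 95% interval of 6.82 to 37.3 that covers counting error only. At 100 nM 21h10 the pooled level was 2.95-fold lower (exact 95% interval 1.88 to 4.78) and the fit did not call it (log2 fold change −1.47 ± 0.63, adjusted p = 0.0638). Without duplicate 1 of that group, the library with 19 reads, the value was −2.41 (adjusted p = 0.0348). Both genes are also marks of regulatory T cells, and the 2 markers of CD4+ and regulatory T cells, Cd4 and Foxp3, summed to 0.588 to 1.10 RPKM over all libraries. In experiment 1 Foxp3 was at most 0.0325 RPKM. In experiment 2 the 2 markers moved apart, Foxp3 from 0.0345 to 0.0428 RPKM in unstimulated to 0.292 to 0.696 RPKM in treated libraries, and Cd4 from 0.747 to 0.807 RPKM to 0.208 to 0.313 RPKM, and their part in the Ccr4 and Ccr8 values was not tested.

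Ccr9, the receptor for CCL25, was the least abundant of the 9 in unstimulated cells of experiment 1 and fell in most treated groups. The libraries gave 0.322 and 0.386 RPKM unstimulated in experiment 1, 0.376 and 0.228 with 100 pM mIL-21, 0.206 and 0.198 with 1 nM mIL-21, 0.234 and 0.236 with 100 pM 21h10, and 0.103 and 0.124 with 1 nM 21h10. The 100 pM mIL-21 libraries overlapped with the unstimulated ones (log2 fold change −0.27 ± 0.21, adjusted p = 0.241), and without duplicate 1 of that dose the fall was called (−0.69, adjusted p = 0.0242). The fall at 100 pM 21h10 (−0.56 ± 0.20, adjusted p = 0.0158) was not called without duplicate 2 of the unstimulated cells or duplicate 2 of that dose (adjusted p = 0.0883 to 0.0961). The fall at 1 nM 21h10 was the largest, at 2.86-fold (adjusted p = 2.25e-05). In experiment 2 the libraries gave 0.937 and 0.968 RPKM unstimulated and 0.231 to 0.484 RPKM in the 8 treated libraries, with falls of 1.76-fold at 100 nM 21h10 to 3.36-fold at 100 nM mIL-21. The fall at 100 nM 21h10 was lost without duplicate 2 of the unstimulated cells or duplicate 1 of that dose (adjusted p = 0.0533 to 0.103). Of the exonic bases of Ccr9, 18.83% overlap a gene on the opposite strand.

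At matched doses the question was whether 21h10 gave another receptor pattern than mIL-21, and 9 receptors were compared at 4 doses. At 100 pM, 8 of 9 receptors differed, 3 higher and 5 lower with 21h10, where 38.6% of all genes did (19.6% higher, 19.0% lower). At 1 nM, 7 of 9 differed, 4 higher and 3 lower, where 37.7% of all genes did (19.6% higher, 18.1% lower). At 10 nM no receptor was called by edgeR or DESeq2, with 2 of 9 at an unadjusted p under 0.05, and 0.00726% of all genes were called. At 100 nM, 4 of 9 differed, 2 higher and 2 lower, against 8.53% of all genes (4.02% higher, 4.52% lower).

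Cxcr3 was lower with 21h10 at 3 of the 4 doses. The log2 difference was −1.39 ± 0.06 (95% CI −1.53 to −1.25, adjusted p = 4.47e-11) at 100 pM, −1.32 ± 0.08 (−1.49 to −1.15, adjusted p = 8.07e-10) at 1 nM and −0.80 ± 0.09 (95% CI −0.996 to −0.60, adjusted p = 5.69e-05) at 100 nM. At 10 nM it was −0.21 ± 0.09 (−0.40 to −0.01, adjusted p = 0.554). These are 2.62-, 2.50- and 1.74-fold lower levels at the called doses, and the libraries of both proteins did not overlap at any of them.

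Ccr4 turned with dose in experiment 1. It was lower with 21h10 than with mIL-21 at 100 pM (log2 difference −0.35 ± 0.07, adjusted p = 0.000746) and 2.10-fold higher at 1 nM (1.07 ± 0.07, 95% CI 0.92 to 1.22, adjusted p = 1.92e-09). In experiment 2 the difference was 0.09 ± 0.16 at 10 nM (95% CI −0.26 to 0.43, adjusted p = 0.897) and 1.19 ± 0.16 at 100 nM (0.84 to 1.54, adjusted p = 0.000269), the latter 2.27-fold. Ccr7 turned as well in experiment 1, from −0.24 ± 0.05 at 100 pM (adjusted p = 0.000808) to 0.37 ± 0.05 at 1 nM (adjusted p = 9.8e-06). It was lower with 21h10 at 100 nM (−0.61 ± 0.12, adjusted p = 0.00386). Without duplicate 2 of 100 nM 21h10 this last value was −0.51 (adjusted p = 0.0907). At 10 nM Ccr7 differed by −0.31 ± 0.12 (95% CI −0.55 to −0.06, adjusted p = 0.527).

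Ccr2 was higher with 21h10 in experiment 1, by 0.34 ± 0.07 at 100 pM (adjusted p = 0.000599) and 0.23 ± 0.07 at 1 nM (adjusted p = 0.00891), and the latter call was lost without duplicate 2 of 1 nM mIL-21 (0.14, adjusted p = 0.123). In experiment 2 it was not called, at −0.02 ± 0.09 (95% CI −0.21 to 0.16) and −0.26 ± 0.09 (−0.45 to −0.07, adjusted p = 0.085). Without either unstimulated library the 100 nM value was called (adjusted p = 0.0154 to 0.0156), and DESeq2 called it with all libraries (adjusted p = 0.0492). Ccr8 was lower with 21h10 at 100 pM (−0.97 ± 0.18, adjusted p = 0.00051) and at 1 nM (−0.79 ± 0.27, adjusted p = 0.0295), the latter not without either 1 nM mIL-21 library or duplicate 2 of 1 nM 21h10 (adjusted p = 0.0834 to 0.166). Its counts in experiment 2 left wide intervals, −1.24 to 2.80 at 10 nM and −0.08 to 3.30 at 100 nM.

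The calls of the other 4 receptors, Cxcr4, Cxcr6, Cxcr5 and Ccr9, each depended on single libraries. Cxcr4 lay between −0.09 and 0.14 over the 4 doses and was called at 100 pM alone (0.14 ± 0.05, 95% CI 0.03 to 0.25, adjusted p = 0.0376). This call was lost without either library of the unstimulated cells or of 100 pM mIL-21 or 21h10 (adjusted p = 0.0586 to 0.268). Cxcr6 was called at 100 pM (0.22 ± 0.06, adjusted p = 0.0125), not without either 100 pM mIL-21 library or duplicate 1 of 100 pM 21h10 (adjusted p = 0.0644 to 0.194). Its intervals were −0.21 to 0.06 at 1 nM, −0.33 to 0.02 at 10 nM and −0.19 to 0.16 at 100 nM. Cxcr5 was lower with 21h10 at 100 pM (−0.28 ± 0.08, adjusted p = 0.0131), a call lost without duplicate 1 of 100 pM mIL-21 or duplicate 2 of 100 pM 21h10 (adjusted p = 0.084 to 0.126). It was higher at 1 nM (0.28 ± 0.09, adjusted p = 0.0145), a call lost without duplicate 1 of 1 nM mIL-21 or duplicate 2 of 1 nM 21h10 (adjusted p = 0.0626 to 0.160). Ccr9 was lower at 1 nM (−0.76 ± 0.29, adjusted p = 0.0479) and higher at 100 nM (0.94 ± 0.27, adjusted p = 0.0457). The first of these was not called without either library of any of the unstimulated, 1 nM mIL-21, 1 nM 21h10 or 100 pM 21h10 groups (adjusted p = 0.0558 to 0.153), nor the second without either library of the 100 nM mIL-21, 10 nM 21h10 or 100 nM 21h10 groups (adjusted p = 0.0609 to 0.282). With library sizes from mapped reads, the Cxcr4 and Cxcr6 calls at 100 pM, the Cxcr5 call at 1 nM and the Ccr9 call at 100 nM were lost (adjusted p = 0.0527 to 0.609), and DESeq2 did not call Ccr9 at 1 nM (adjusted p = 0.0857).

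**Figure D3:**
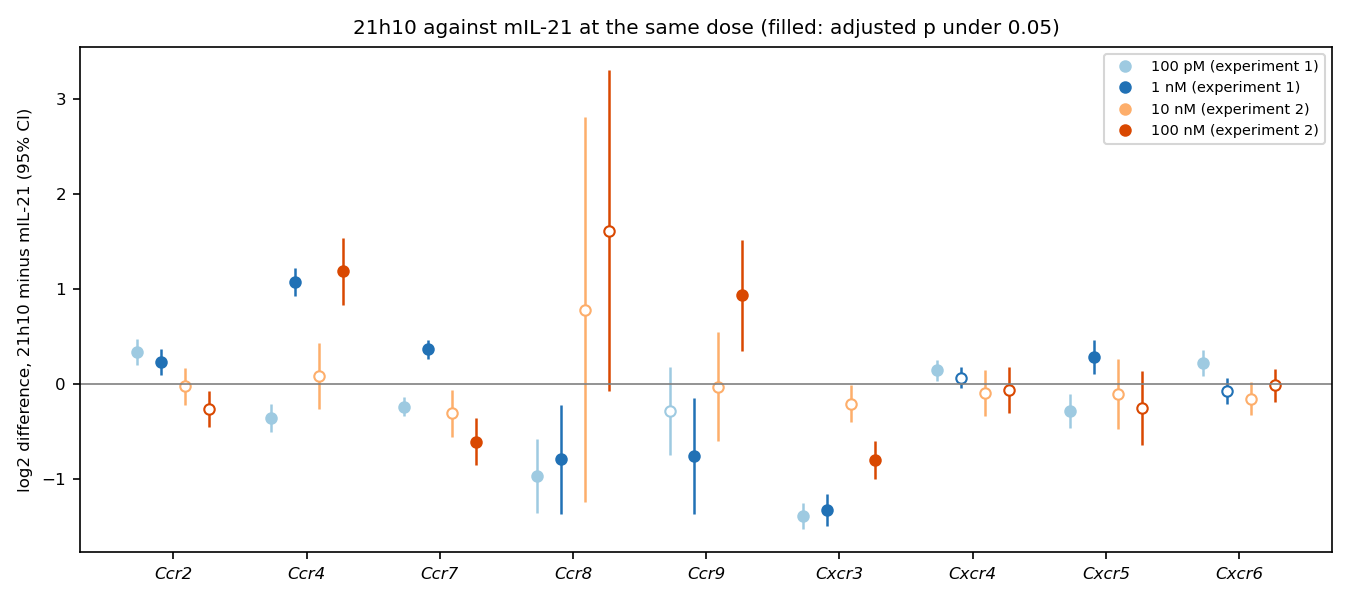
log2 difference between 21h10 and mIL-21 at the same dose for each receptor (points, with 95% confidence intervals), positive where 21h10 was higher, filled where the adjusted p was under 0.05. Cxcr3 lay below 0 at all 4 doses (−1.39 to −0.21), and Ccr4 crossed from −0.35 at 100 pM to 1.07 at 1 nM and stood at 1.19 at 100 nM.

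The dose dependence of the difference between the proteins was tested as an interaction, the difference at the higher dose minus that at the lower dose. In experiment 1 it passed for 4 of 9 receptors, where 18.4% of all genes passed: Ccr4 (1.42 ± 0.10, adjusted p = 4.08e-08), Ccr7 (0.60 ± 0.07, adjusted p = 9.07e-06), Cxcr5 (0.57 ± 0.12, adjusted p = 0.00297) and Cxcr6 (−0.29 ± 0.09, adjusted p = 0.0334). In experiment 2 it passed for 2 of 9, where 0.922% of all genes passed: Ccr4 (1.10 ± 0.23, adjusted p = 0.032) and Cxcr3 (−0.59 ± 0.13, adjusted p = 0.0437). The Cxcr6, Cxcr3 and second Ccr4 calls hung on single libraries, and with library sizes from mapped reads the Cxcr6 and Cxcr3 calls were lost (adjusted p = 0.105 and 0.130). Cxcr6 was not called without either unstimulated or 100 pM mIL-21 library, duplicate 1 of 1 nM mIL-21 or of 100 pM 21h10, or duplicate 2 of 1 nM 21h10 (adjusted p = 0.0531 to 0.193). Cxcr3 was not called without any 1 of the 8 treated libraries of experiment 2 (adjusted p = 0.106 to 0.198), nor was Ccr4 there without any 1 of them but duplicate 2 of 100 nM mIL-21 (adjusted p = 0.083 to 0.234).

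A 10-fold step in dose was then compared within each protein. From 100 pM to 1 nM mIL-21, 5 of 9 changed (34.5% of all genes): Ccr2 and Cxcr6 rose by 0.52 ± 0.07 and 0.36 ± 0.07 on the log2 scale, and Ccr7, Ccr8 and Cxcr3 changed by −0.17 ± 0.05, −1.10 ± 0.21 and −1.45 ± 0.07. The Ccr7 step was not called without duplicate 1 of either dose (adjusted p = 0.0699 to 0.0973), and without duplicate 2 of 100 pM the Ccr9 step was (−0.77, adjusted p = 0.0323). From 100 pM to 1 nM 21h10, 7 of 9 changed (39.2%): Ccr2, Ccr4, Ccr7 and Cxcr5 rose by 0.41 ± 0.06, 1.29 ± 0.07, 0.43 ± 0.05 and 0.58 ± 0.08, and Ccr8, Ccr9 and Cxcr3 changed by −0.92 ± 0.24, −0.96 ± 0.26 and −1.38 ± 0.08. The Ccr8 step was not called without duplicate 2 of either dose (adjusted p = 0.0724 to 0.115). From 10 to 100 nM mIL-21 edgeR and DESeq2 called no receptor and no gene (0.0% of all genes), with 1 of 9 receptors and 361 genes at an unadjusted p under 0.05.

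From 10 to 100 nM 21h10, 3 of 9 receptors changed (5.33% of all genes): Cxcr3 by −0.79 ± 0.09 (adjusted p = 9.46e-05), Ccr4 by 0.76 ± 0.16 (adjusted p = 0.0105) and Ccr7 by −0.49 ± 0.12 (adjusted p = 0.0207). The Ccr7 call was lost without any 1 of the 4 libraries compared (adjusted p = 0.0635 to 0.244) and the Ccr4 call without duplicate 1 of 10 nM or either library of 100 nM (adjusted p = 0.0586 to 0.135). The direction of the Ccr7 step with 21h10 was thus up between 100 pM and 1 nM and down between 10 and 100 nM, in different experiments.

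Across doses, 100 pM 21h10 and 1 nM mIL-21 gave no called difference in any of the 9 receptors by edgeR or DESeq2 (0.737% of all genes were called), with 5 of 9 at an unadjusted p under 0.05. The largest of the 9 values was −0.30 ± 0.08 for Cxcr5 (95% CI −0.48 to −0.12, adjusted p = 0.161), and for Cxcr3 it was 0.06 ± 0.07 (−0.08 to 0.21). Between 1 nM 21h10 and 100 pM mIL-21, 8 of 9 differed (59.5% of all genes), with Cxcr3 6.84-fold lower and Ccr4 1.92-fold higher with 21h10. Without duplicate 2 of either group the Cxcr5 call there was lost (adjusted p = 0.0539 to 0.087), and without duplicate 1 of 1 nM 21h10 Cxcr4 was called (0.16, adjusted p = 0.0161). In experiment 2, 10 nM 21h10 and 100 nM mIL-21 differed in no receptor by either tool (0.00726% of all genes, 1 of 9 receptors at an unadjusted p under 0.05). There 100 nM 21h10 and 10 nM mIL-21 differed in 4 of 9 (18.1%), Ccr4 being 1.80-fold higher and Ccr7, Cxcr3 and Cxcr5 1.74-, 1.99- and 1.46-fold lower with 21h10. The Cxcr5 call was lost without any 1 of the 8 treated libraries (adjusted p = 0.054 to 0.280), and Ccr2 was called lower without either unstimulated library (−0.20, adjusted p = 0.0355 to 0.0358).

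The opposite responses of Cxcr4 and Cxcr5 in the 2 experiments led to 1 further fit of all 20 libraries, added after these values had been seen. It compared the mean response of the 4 treated groups between the experiments, and 7 of 9 receptors differed, where 64.7% of 14530 genes did. The response of Cxcr4 was 2.85 ± 0.09 in experiment 1 and −1.28 ± 0.07 in experiment 2, a difference of −4.13 ± 0.11 (adjusted p = 7.74e-17). That of Cxcr5 was 0.65 ± 0.09 and −2.25 ± 0.09, a difference of −2.90 ± 0.13 (adjusted p = 5.84e-14). Ccr7 (−0.74 ± 0.11), Cxcr6 (−0.50 ± 0.09), Ccr2 (0.70 ± 0.10) and Ccr4 (0.57 ± 0.11) differed by less. Ccr9 (−0.59 ± 0.25, adjusted p = 0.048) passed, with the call lost without any 1 of 14 of the 20 libraries (adjusted p = 0.0577 to 0.211). Cxcr3 (−0.01 ± 0.09, 95% CI −0.19 to 0.17) and Ccr8 (−0.29 ± 0.37, −1.06 to 0.47) were not called.

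The unstimulated cells themselves differed between the experiments in all 9 receptors, where 55.4% of all genes did. Cxcr6, Ccr2, Cxcr4, Cxcr5, Ccr9, Cxcr3 and Ccr7 were 4.17-, 3.56-, 3.40-, 3.27-, 2.78-, 2.01- and 1.35-fold higher in experiment 2, and Ccr8 and Ccr4 were 5.33- and 4.0-fold lower. Dose range, experiment and these starting levels cannot be told apart.

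Among 14 other receptors of the family, 13 were in the tables and 9 and 10 were tested in experiments 1 and 2. At 1 nM mIL-21, 5 of these rose and 2 fell (median log2 fold change 0.50), and at 100 nM mIL-21, 5 rose and 1 fell (median 1.73). Over all genes tested, 39.9% were higher and 40.3% lower at 1 nM (median 0.00), and 22.5% and 23.7% at 100 nM (median −0.01). Cxcr1, a receptor for neutrophil-attracting chemokines, stood at 0.0481 and 0.0139 RPKM (6 and 1 reads) in unstimulated cells of experiment 1 and at 8.88 and 8.22 RPKM (441 and 593 reads) with 1 nM 21h10, beside 0.824 and 1.21 RPKM with 1 nM mIL-21. In experiment 2 it went from 0.0729 and 0.0196 RPKM to 1.39 to 3.21 RPKM. The neutrophil markers S100a8 and S100a9 were at 0 in these libraries, and Elane was at 0 in unstimulated cells. Elane reached 0.0246 RPKM with 1 nM 21h10, 0.0234 RPKM with 1 nM mIL-21 and 0.124 RPKM with 100 nM 21h10. The part of neutrophil transcripts in the Cxcr1 values was not tested. Ccr3 was higher in all treated groups except 100 pM mIL-21, where its log2 fold change was 0.00. Its counts were low, at 48 and 20 reads unstimulated and 16 to 111 in treated libraries of experiment 1. In experiment 2 they were 7 and 13 against 16 to 74, with 16 and 74 in the duplicates of 10 nM mIL-21. Ccrl2, a receptor that binds chemerin, rose in 3 groups of experiment 1 (0.50 to 1.21), was at 0.11 with 1 nM 21h10, not called, and fell in the 4 groups of experiment 2 (−2.68 to −1.17).

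**Figure D4:**
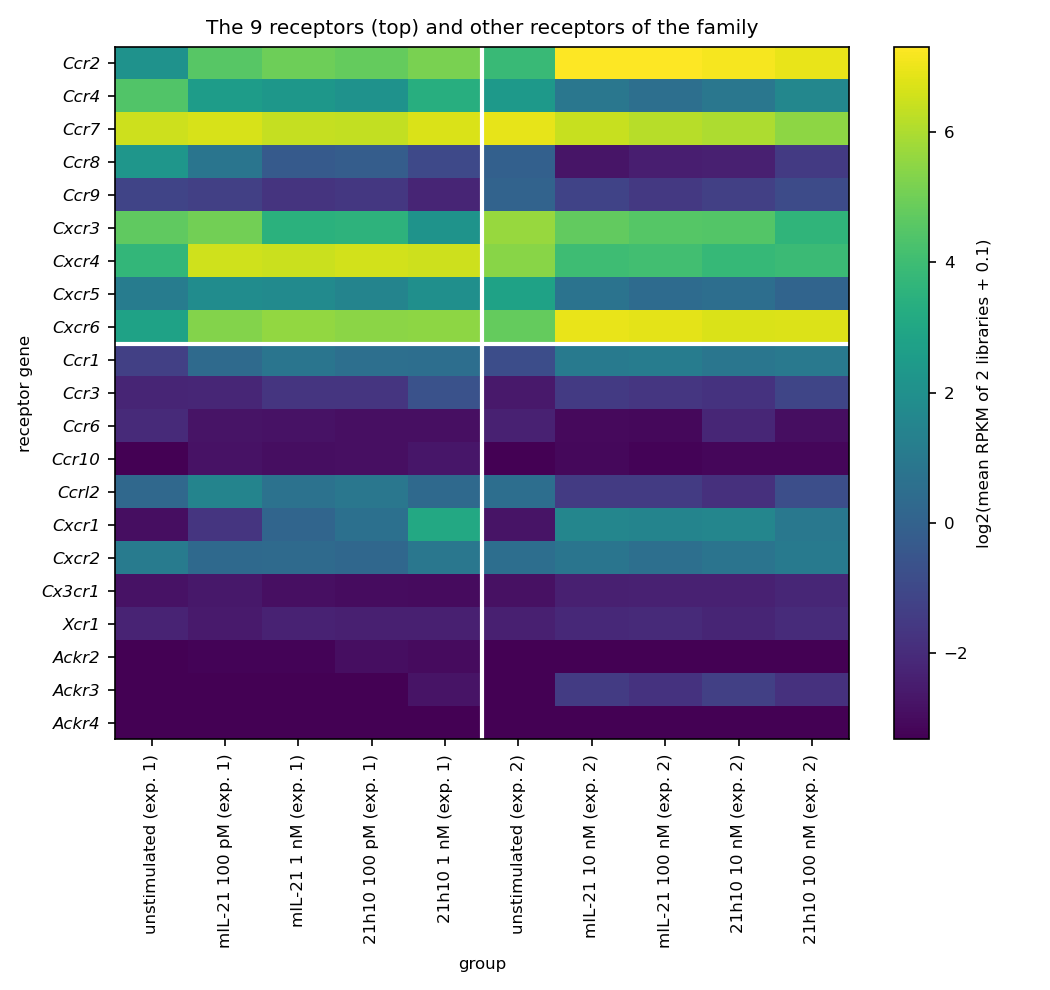
log2 of the mean RPKM of each group of 2 libraries plus 0.1 for the 9 receptors described here (above the white line) and 12 other receptors of the family, with experiment 1 left and experiment 2 right. Ccr2, Ccr7 and Cxcr6 were the most abundant of those shown in treated cells of experiment 2, and Cxcr1 was brightest with 1 nM 21h10 (8.88 and 8.22 RPKM).

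Of 16 ligands of the 9 receptors, all in the tables, 6 were tested in experiment 1 and 5 in experiment 2. None rose and 4 fell at 1 nM mIL-21 (median −1.47), and none rose and 1 fell at 100 nM mIL-21 (median −0.37), where 40.3% and 23.7% of all genes were lower. The 1 of 5 at 100 nM lies near that share. Cxcl10, a ligand of CXCR3, went from 10.8 and 11.9 RPKM in unstimulated cells to 0.0196 to 0.227 RPKM in the treated libraries of experiment 1, and from 3.37 and 3.18 to 0.0947 to 0.666 RPKM in experiment 2. It was called lower in all 8 treated groups. At 1 nM it was higher with 21h10 than with mIL-21 (10 and 9 against 1 and 3 reads), as at 100 nM (31 and 30 against 13 and 9). Cxcr3 was lower with 21h10 at both doses. At 100 pM, where Cxcr3 was lower as well, Cxcl10 was not called (9 and 11 against 8 and 11 reads). Nor was it called at 10 nM (19 and 15 against 6 and 6). Ccl1, a ligand of CCR8, had 30 and 34 reads in unstimulated cells of experiment 1 and 0 to 6 in the treated libraries. Ccl22, a ligand of CCR4, had 33 and 20 reads against 0 to 7. Ccl1 and Ccl22 passed the filter there only through the unstimulated libraries, so they weigh little in the count of ligands that fell. Ccl25, the ligand of CCR9, fell by 0.71 to 0.87 on the log2 scale in the 4 treated groups of experiment 1. In experiment 2 Ccl25 had 106 and 114 reads unstimulated and 44 to 94 in treated libraries, and Ccl22 had 12 and 14 against 0 to 5.

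Of 22 genes of receptor signalling and desensitization, all tested, 15 rose and 3 fell at 1 nM mIL-21 (median 0.32), and 7 rose and 5 fell at 100 nM mIL-21 (median 0.10). Counted in either direction these shares lie near those of all genes, 80.1% and 46.2%. At 1 nM, 4 were higher and 14 lower with 21h10 than with mIL-21 (median −0.29), where 19.6% and 18.1% of all genes were. At 100 nM 1 was higher and 2 were lower (median −0.15), against 4.02% and 4.52% of all genes. Rgs1, which limits Gαi signalling of chemokine receptors, rose by 0.44 to 1.17 in experiment 1 and changed by −1.80 to −1.49 in 3 groups of experiment 2, and with 100 nM 21h10 it was at 0.20, not called. Grk6, a kinase of activated receptors, rose in all 8 groups (0.52 to 1.48), as did Dock2, an activator of Rac in lymphocyte migration (0.24 to 0.76). Arrb2, an arrestin that uncouples receptors, was higher in 7 groups (0.24 to 0.58) and lower with 1 nM 21h10 (−0.25).

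Of 8 other guidance receptors, all 8 were tested in experiment 1 and 7 in experiment 2. At 1 nM mIL-21, 7 rose and none fell (median 1.00), and at 100 nM mIL-21, 6 rose and 1 fell (median 0.93), against 39.9% of all genes higher and 40.3% lower at 1 nM and 22.5% and 23.7% at 100 nM. S1pr1, which leads T cells out of lymphoid organs, rose by 1.04 to 1.32 in experiment 1 and 0.27 to 1.28 in experiment 2, the smallest rise being that with 100 nM 21h10, where it was lower than with 100 nM mIL-21 (log2 difference −0.99 ± 0.07). Gpr183, a receptor for oxysterols, rose by 0.68 to 2.48 and Ltb4r1, the leukotriene B4 receptor, by 0.93 to 4.03 over the 8 groups. S1pr4 was called higher in 7 of the 8 groups (0.44 to 1.07) and was at 0.07 with 100 nM 21h10.

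The genes whose pattern over the 10 group means, each experiment centred on its own mean, was most like that of a receptor were looked up among 13248 genes tested in both experiments. The 10 points come from the libraries that the tests used, and the values are a description. For Cxcr4 these were Agbl5, Ccng2 and Rps15 (Pearson r of 0.998, 0.995 and 0.995), and for Cxcr5 Ube2t, Lrig1 and Rpl38 (0.974, 0.966 and 0.965). For Cxcr3 they were Fut11, Ehd3 and Nudcd3 (0.989, 0.979 and 0.979), for Ccr2 Cd163l1 and Cited2 (0.993 and 0.992) and for Cxcr6 Sema4a, Trib2 and Sirt2 (0.996, 0.994 and 0.994). For Ccr4 they were Xylb, Pias2 and Rfc3 (0.979, 0.964 and 0.961), and for Ccr8 Mlkl, Spg20 and Xrcc3 (0.995, 0.993 and 0.989). They were for Ccr9 Ticam2, Cbx2 and Cnst (0.979, 0.972 and 0.955), and for Ccr7 Htt, Ttc7 and 1700001J11Rik (0.954, 0.951 and 0.930).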

How the data were processed

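RNA of 20 samples was sequenced on an Illumina NovaSeq after library preparation with a KAPA mRNA HyperPrep kit. The submitters' processing notes name Bowtie2 2.2.6, TopHat2 2.0.11, SAMtools 0.1.8, bedtools 2.25.0 and edgeR, with the genome mm10 (GRCm38). The authors deposited, for each library, raw counts of reads on the exons of 31682 RefSeq transcripts, and RPKM values (reads scaled to transcript length and mapped reads) made from them. The counting tool, its use of strand and the annotation version are not given in the sources used here.

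For each gene symbol the longest transcript was used. Counts were tested in edgeR 4.0.16 (R 4.3.3) with TMM scaling, filterByExpr (minimum count 10, minimum total 15) and the quasi-likelihood test, in 1 fit of the 10 libraries of an experiment, with the Benjamini-Hochberg adjustment over all genes tested. The scripts were tested on simulated data. Standard errors are the absolute log2 fold change over the square root of F. RPKM served for levels and for comparisons between genes. DESeq2 1.42.0, no filter, a replicate block, the compared groups alone, library sizes from mapped reads, the most-read transcript and leaving out each library were tried as alternatives. The labels' "WT" protein was read as mIL-21 and "h10" as 21h10.

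The 9 receptors and the gene lists were chosen with earlier results of these data known. Of each list, at most 4 genes are named, those called in the most comparisons, with ties broken by the larger mean absolute log2 fold change, and for each receptor the 3 genes most alike in pattern. The fit of all 20 libraries, the motifs searched and the promoters printed were chosen after the data were seen. Similar transcripts were sought with BLAST 2.17.0. A few genes that these rules would name are not reported here, but stay in the list counts.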

Additional observations from a re-analysis of the deposited data

Results flagged for a closer look

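The first kind of difference is a difference between 21h10 and mIL-21 that itself changed with dose, tested as an interaction in edgeR. In experiment 1 the change from 100 pM to 1 nM was 1.42 for Ccr4, 0.60 for Ccr7, 0.57 for Cxcr5 and −0.29 for Cxcr6 on the log2 scale. In experiment 2 the change from 10 to 100 nM was 1.10 for Ccr4 and −0.59 for Cxcr3. Of the 9 receptors, Ccr4 alone passed in both experiments, with the same sign. Its call in experiment 2 hung on single libraries, as did those of Cxcr3 there and of Cxcr6 in experiment 1.

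The second kind is a response to cytokine that differed between the experiments, tested in the added fit of all 20 libraries. The response in experiment 2 minus that in experiment 1 was −4.13 for Cxcr4, −2.90 for Cxcr5, −0.74 for Ccr7, −0.59 for Ccr9, −0.50 for Cxcr6, 0.70 for Ccr2 and 0.57 for Ccr4. Cxcr4 and Cxcr5 were the receptors that rose in all 4 treated groups of 1 experiment and fell in all 4 of the other. The experiments differed in dose range and in the unstimulated levels of all 9 receptors, which cannot be told apart. With 2 libraries a group, single outlying samples were not looked for.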

How the results depend on the processing

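For the log2 fold changes of the 9 receptors, 216 in all, 3416 of 3611 recomputed values kept their direction and their side of the threshold, and no called value changed sign. A further 119 lost a call and 27 gained one, and of 49 uncalled values 44 changed sign and the others had no adjusted p from DESeq2. Leaving out 1 library at a time, the number of receptors called between 21h10 and mIL-21 ranged from 5 to 8 at 100 pM (8 with all libraries), from 4 to 7 at 1 nM (7) and from 2 to 5 at 100 nM (4). It ranged from 1 to 3 between 10 and 100 nM 21h10 (3) and from 0 to 2 for the dose dependence in experiment 2 (2). The lowest counts came without duplicate 1 of 100 pM mIL-21 (5), either library of 1 nM mIL-21 or duplicate 2 of 1 nM 21h10 (4), duplicate 2 of 100 nM 21h10 (2), and duplicate 1 of 10 nM or either library of 100 nM 21h10 (1). With library sizes from mapped reads, the count between 1 nM 21h10 and 100 pM mIL-21 was 5 in place of 8, and that for the dose dependence in experiment 2 was 1 in place of 2. This scaling moved the median of all genes by −0.30 to −0.18 (log2) against unstimulated cells in experiment 2, where no receptor lost a call and Ccr8 gained one at 100 nM 21h10 (adjusted p = 0.025). DESeq2 lost the calls of Ccr9 at 100 pM 21h10 against unstimulated cells (adjusted p = 0.0667), at 1 nM between the proteins (0.0857) and between the experiments (0.0748), and that of Cxcr6 for the dose dependence (0.0522). With a replicate block, as a paired analysis by duplicate number, the count at 1 nM was 6 in place of 7 (Ccr9, adjusted p = 0.0587), and no other call changed. The duplicate numbers were not taken to pair samples, since the deviations of same-numbered libraries correlated over 0.1 in 0 of 10 pairs of groups in experiment 1 and 3 of 10 in experiment 2. The most-read transcript in place of the longest changed no call. Without the filter Cxcr4 at 100 pM between the proteins was not called (adjusted p = 0.0526). With the compared groups alone, Ccr7 at 10 nM mIL-21 against unstimulated cells (0.110) and the Cxcr6 dose dependence (0.0507) were not called. Nor were Cxcr5 at 1 nM (0.0568) and Ccr9 at 100 nM (0.0587) between the proteins. Cxcr5 was not called between 100 nM 21h10 and 10 nM mIL-21 (0.0772). Both settings gained calls, as for Ccr2 at 100 nM between the proteins (0.0122 and 0.0137). Depth limits Ccr8 in experiment 2, with 1 to 19 reads in treated libraries, and Ccr9 in experiment 1, with 20 to 113.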
